A study of Arabidopsis thaliana with 12 samples.

Results

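Cytochrome P450 genes were examined in imbibed seeds of Arabidopsis thaliana, in all 6 groups of a gibberellin time course. A probe set was taken when the platform annotation gives it to exactly 1 gene whose symbol has the P450 form (CYP, a number, a letter and a number) and its signal reached 16 on at least 2 of the 12 arrays. The annotation gives 22 probe sets to 1 such gene, and 10 of them (45.5%) met the brightness rule, out of 15779 probe sets that met it in the whole series. By family, 8 of the 10 are CYP71 genes, all of the subfamily CYP71B, 1 belongs to CYP51 (CYP51G2) and 1 to CYP84 (CYP84A4). Of all probe sets that name 1 gene, 65.6% met the same rule. The RefSeq table of TAIR10.1 holds 225 genes with a symbol of this form, so the members are a small, CYP71B-heavy sample of the superfamily. The other P450 genes were not analysed here.

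The seeds were of the Ler background and came from 1 stock, whose genotype beyond that background the labels do not state, as they do not state the form of gibberellin. They were given water or 5 µM gibberellin and taken at 3, 6 or 9 h. Each of the 6 groups (water at 3 h, 6 h and 9 h, gibberellin at 3 h, 6 h and 9 h) has 2 one-colour arrays, lettered A and B, and a value is a MAS5 signal on a linear scale. No label says that A and B were separate seed batches. The p-values therefore reflect only how far the arrays differ, and that spread may be technical.

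Cytochromes P450 are haem enzymes that use molecular oxygen and electrons from a reductase to hydroxylate or otherwise oxidise small molecules. In plants they make and break down hormones, sterols, lignin precursors and defence compounds, and the family number groups enzymes of related sequence. In seeds the best known are the CYP707A enzymes, which inactivate abscisic acid during imbibition, and the P450s that make gibberellin precursors. The CYP71 family is the largest of the plant P450 families and includes CYP71B15, which completes the synthesis of the defence compound camalexin. Most CYP71B genes have no established substrate.

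The arrays had been scaled to 1 trimmed mean, and their number limits the precision. The highest signal lay between 3308 and 3787 on 4 arrays, the A arrays of both treatments at 3 h and 6 h, and between 6511 and 9143 on the other 8. The A and B arrays of each group correlated at between 0.913 and 0.935 on the log2 scale. None of the 13 seed marker genes listed for this work is named for a probe set of its own in the annotation used. Of 4 others added after their values were seen, OLEO3, an oleosin of seed oil bodies, had group means between 507 and 708, and the late embryogenesis gene LEA18 between 2289 and 4781. In all 4 the lowest group mean was that of gibberellin at 9 h, and whether this bears on the P450 results was not tested. Of 9 leaf markers 1 could be read, RCA (rubisco activase), with group means between 295 and 382. Its lowest group mean was also that of gibberellin at 9 h.

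CYP71B26 (AT3G26290) was the only member that passed the test of gibberellin against water in the fit reported, with a lower signal in gibberellin. With a block for the replicate letter or the signal ceiling CYP71B34 passed in some contrasts too, as given below. The signal of CYP71B26 in water was 132 on the A array and 128 on the B array at 3 h, 115 on both arrays at 6 h, and 122 and 77.2 at 9 h. In gibberellin it was 98.5 and 59.9 at 3 h, 40.1 and 30.9 at 6 h, and 25.8 and 45.8 at 9 h. At each time both gibberellin arrays lay below both water arrays. Over all times the groups overlap through 1 water array, B at 9 h, which lies below the gibberellin A array of 3 h.

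The 6 h mean of CYP71B26 was 115 ± 0.0778 for the water arrays and 35.5 ± 6.55 for the gibberellin arrays (SD, n = 2). The log2 change was -1.71 ± 0.338 (SE; limma, adjusted p = 0.0312), a signal 0.306 times that in water. At 9 h the means were 99.4 ± 31.4 and 35.8 ± 14.1 (SD, n = 2), a log2 change of -1.50 ± 0.338 (limma, adjusted p = 0.0217). At 3 h, with means of 130 ± 2.87 and 79.2 ± 27.3 (SD, n = 2), the change was -0.75 ± 0.338 and did not pass (limma, adjusted p = 0.936). Averaged over the 3 times the change was -1.32 ± 0.195 (limma, adjusted p = 0.00137). The signal was lower with gibberellin in 6 of 6 comparisons of same-lettered arrays, which follows from the separation at each time. In bulk seeds, fewer cells that hold a transcript and less of it per cell cannot be told apart.

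**Figure D1:**
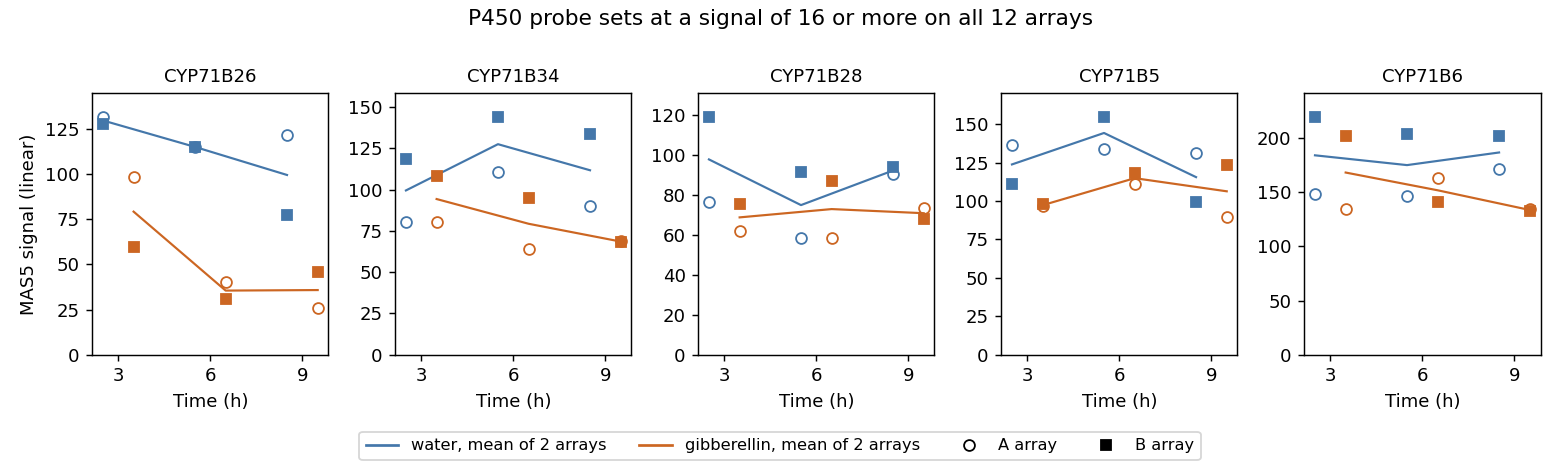
MAS5 signal (linear axis from 0) against time in water (blue) and gibberellin (orange) for the 5 P450 probe sets that reached 16 on all arrays; open circles are A arrays, filled squares B arrays, lines join the means of 2, and the treatments are set slightly apart sideways. CYP71B26 reads between 25.8 and 45.8 in gibberellin at 6 h and 9 h and between 77.2 and 122 in water at those times, whereas in the other 4 panels the treatments lie closer together.

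The calls of CYP71B26 at single times were lost when some of the arrays were left out, while its change stayed negative. At 6 h, without any 1 of the 4 arrays of that time, the change was between -1.90 and -1.52 and the adjusted p between 0.103 and 0.207, with 1 array left in a group. At 9 h the change was -1.17 without water A (adjusted p = 0.151), -1.82 without water B (adjusted p = 0.0527) and -1.08 without gibberellin A (limma, adjusted p = 0.149). The average kept its call without any 1 of the 12 arrays, with changes between -1.46 and -1.18. With the low signal ceiling of the 4 arrays as a block, the adjusted p was 0.00856 at 6 h, 0.00753 at 9 h and 0.000285 for the average (limma). Within the 8 arrays without it, where 6 h has 1 array per treatment and each is assumed to vary like the 9 h arrays, the changes were -1.90 at 6 h (adjusted p = 0.235), -1.50 at 9 h (adjusted p = 0.0449) and -1.49 on average (adjusted p = 0.0188). Among the 4 low-ceiling arrays, which hold 1 array per group, the changes were -0.42 at 3 h and -1.52 at 6 h.

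CYP71B26 in water alone had a log2 change of -0.42 ± 0.338 from 3 h to 9 h (limma, adjusted p = 0.99985). In gibberellin alone it was -1.16 ± 0.338 over the same time (limma, adjusted p = 0.160). The effect of gibberellin at 9 h minus that at 3 h was -0.74 ± 0.478 (95% interval -1.79 to 0.31; limma, adjusted p = 0.831), so a growing effect was not shown for this gene.

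CYP71B34 (AT3G26300), the next gene after CYP71B26 on chromosome 3, did not pass the test in the fit reported. In water its signal was 80.2 and 119 at 3 h (A and B), 111 and 144 at 6 h, and 89.9 and 133 at 9 h. In gibberellin it was 80.6 and 108 at 3 h, 63.8 and 94.7 at 6 h, and 68.8 and 68.2 at 9 h. The treatments overlap at 3 h, and at 6 h and 9 h both gibberellin arrays lie below both water arrays. The log2 changes were -0.07 ± 0.296 at 3 h (adjusted p = 0.99992), -0.70 ± 0.296 at 6 h (adjusted p = 0.383) and -0.68 ± 0.296 at 9 h (limma, adjusted p = 0.205). On average it was -0.48 ± 0.171 (95% interval -0.86 to -0.11; limma, adjusted p = 0.0971), and the signal was lower in 5 of 6 comparisons of same-lettered arrays. With the signal ceiling as a block the average passed (limma, adjusted p = 0.0211), as did 17.0% of all probe sets. With the replicate letter as a block CYP71B34 passed at 9 h and on average (limma, adjusted p = 0.0339 and 0.00846). Of all probe sets 17.0% and 21.8% passed with that block. The A array of CYP71B34 was below its B array in 5 of 6 groups.

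CYP71B6 (AT2G24180), which acts on indole-3-acetonitrile in the synthesis of indole carboxylic acids, was at 16 or more on all 12 arrays. In water its signal was 148 and 219 at 3 h, 146 and 204 at 6 h, and 171 and 202 at 9 h. In gibberellin it was 134 and 202 at 3 h, 163 and 141 at 6 h, and 135 and 132 at 9 h. The treatments overlap at 3 h and 6 h and are apart at 9 h, where the log2 change was -0.48 ± 0.262 (95% interval -1.05 to 0.10; limma, adjusted p = 0.323). On average it was -0.27 ± 0.151 (limma, adjusted p = 0.309).

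CYP71B5 (AT3G53280) read between 99.5 and 155 in water, with a median of 133, and between 89.5 and 123 in gibberellin, with a median of 105. Its log2 changes were -0.34 ± 0.226 at 3 h, -0.33 ± 0.226 at 6 h and -0.12 ± 0.226 at 9 h, and -0.26 ± 0.13 on average (95% interval -0.55 to 0.02; limma, adjusted p = 0.237). Both gibberellin arrays were below both water arrays at 3 h and 6 h, but not at 9 h.

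CYP71B28 (AT1G13090) read between 58.4 and 119 in water, with a median of 91.0, and between 58.7 and 87.3 in gibberellin, with a median of 70.96. The log2 changes were -0.48 ± 0.3 at 3 h, -0.03 ± 0.3 at 6 h and -0.38 ± 0.3 at 9 h, and -0.30 ± 0.173 on average (95% interval -0.68 to 0.08; limma, adjusted p = 0.323). Both gibberellin arrays were below both water arrays at 3 h and 9 h, and at 6 h the groups overlapped.

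These 5 CYP71B probe sets were at 16 or more on every array, so none of them owes its place to 1 treatment. Each had a negative change at every time, with a median of -0.34 at 3 h, -0.33 at 6 h, -0.48 at 9 h and -0.30 on average. Over all probe sets tested, dim ones included, the median lay between -0.02 and 0.00. Of their changes 52.1% were negative at 3 h, 50.6% at 6 h, 50.1% at 9 h and 51.4% on average. The share of probe sets negative at all 3 times was not counted. Without 1 of the arrays compared, 5 of the 15 changes of these 5 members at single times turned positive. They were CYP71B34 at 3 h (up to 0.22), CYP71B28 at 6 h (up to 0.30), CYP71B6 at 3 h (up to 0.16) and at 6 h (up to 0.05), and CYP71B5 at 9 h (up to 0.11). At 3 h this came without water B or gibberellin A, at 6 h without water B or, for CYP71B28, gibberellin A, and at 9 h without either A array. The 5 share arrays, and CYP71B26 alone of them passed the test in the fit reported.

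Whether CYP71B26 changed more than the other 4 was tested on the log2 ratio of 2 probe sets in each array, 6 gibberellin against 6 water arrays, for all 10 pairs. The ratio of CYP71B26 to CYP71B34 differed by -0.84 between the treatments (two-sided exact permutation p = 0.0411, adjusted p = 0.103). To CYP71B28, CYP71B5 and CYP71B6 it differed by -1.02, -1.06 and -1.05 (exact permutation p = 0.026, 0.0152 and 0.0173, adjusted p = 0.0866 each). After adjustment over all 10 pairs none passed, and the 6 pairs without CYP71B26 differed by between -0.22 and 0.18 (adjusted exact permutation p between 0.329 and 0.989). The arrays of 3 h enter this test with those of 6 h and 9 h.

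**Figure D2:**
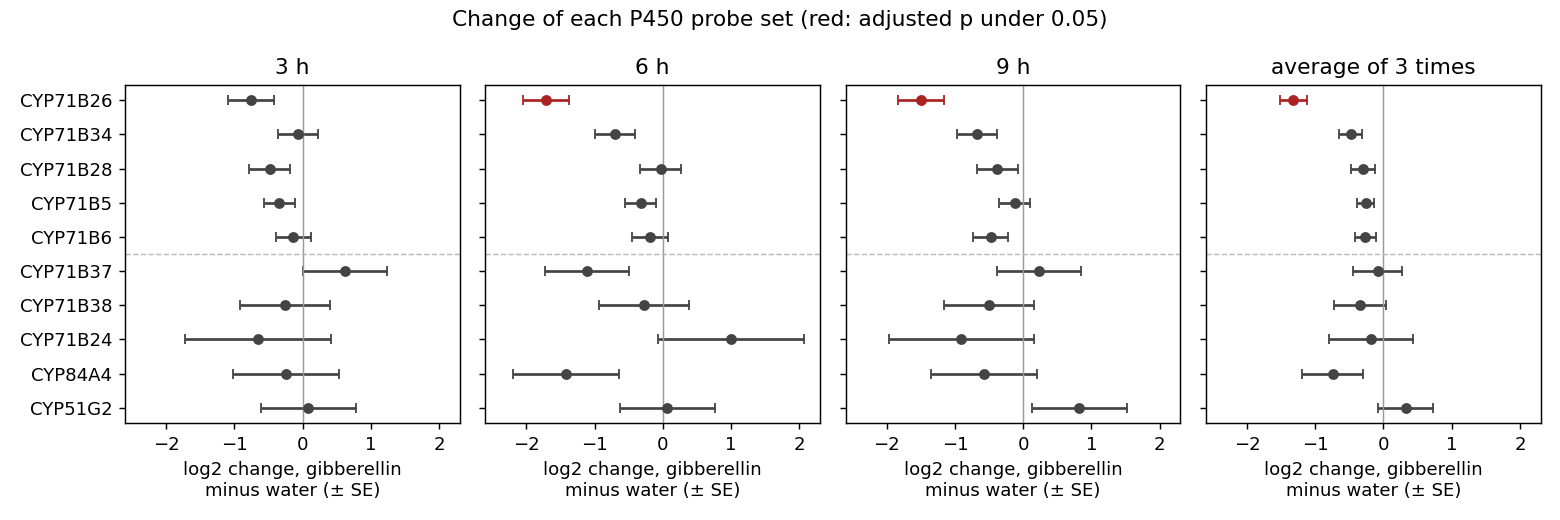
Log2 change of each of the 10 P450 probe sets, gibberellin minus water, with its SE as bars, at 3 h, 6 h, 9 h and on average; red marks an adjusted p under 0.05, and the dashed line parts the 5 probe sets at 16 or more on all arrays (above) from the 5 dim ones (below). CYP71B26 is red at 6 h (-1.71), 9 h (-1.50) and on average (-1.32), and the dim sets have the wider bars.

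Of the 10 members, 0 passed at 3 h, where 0.228% of all probe sets did (limma). At 6 h 1 passed, against 1.48% of all, at 9 h 1 against 7.47%, and on average 1 against 11.6%. A share of 1 in 10 at 9 h or on average is near the background. The 1 call was CYP71B26 each time, and 1 call among 10 members cannot show an excess of P450 calls at 6 h. At an unadjusted p under 0.05 the count was 1 at 3 h, CYP71B26, against 5.26% of all probe sets. It was 2 at 6 h against 11.5%, 2 at 9 h against 22.2% and 2 on average against 25.5%, each time CYP71B26 and CYP71B34.

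Both gibberellin arrays lay below both water arrays for 3 members at 3 h, 5 at 6 h and 4 at 9 h, where 15.9%, 21.7% and 25.3% of all probe sets did so. They lay above both for 1 member at 3 h (CYP71B37), 1 at 6 h (CYP71B24) and 0 at 9 h, where 14.5%, 20.3% and 25% of all did so. Among those below at 6 h, CYP84A4 met the brightness rule through water arrays alone, 1 of them of 6 h. CYP71B37, also below at 6 h, and CYP71B24 lie near the floor. The counts therefore depend partly on the rule and on dim signals. All 6 gibberellin arrays lay below all 6 water arrays for 0 members and for 2.6% of all probe sets.

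For the effect at 9 h minus that at 3 h, 0 members passed, against 0.0127% of all, and 0 had an unadjusted p under 0.05, against 6.81% (limma). From 3 h to 9 h in water 0 members and 0% of all probe sets passed, and 0 members had an unadjusted p under 0.05, against 2.07%. In gibberellin over the same time 0 members passed, against 0.488% of all, and 1, CYP71B26, had an unadjusted p under 0.05, against 13% (limma).

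The other 5 members lie near the brightness floor, where log2 values spread widely. CYP71B37 (AT3G26330) reached 16 on 7 arrays. In water it read 14.2 and 19.2 at 3 h, 17.8 and 26.3 at 6 h, and 7.90 and 26.4 at 9 h. In gibberellin it read 31.2 and 20.5 at 3 h, 13.1 and 7.65 at 6 h, and 14.4 and 19.9 at 9 h. Both gibberellin arrays were above water at 3 h and both below at 6 h. The log2 changes were 0.62 ± 0.613 at 3 h (adjusted p = 0.99992), -1.11 ± 0.613 at 6 h (adjusted p = 0.558) and 0.23 ± 0.613 at 9 h (limma, adjusted p = 0.888).

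CYP84A4 (AT5G04330), a hydroxylase of the pathway to arabidopyrones and a relative of the lignin enzyme CYP84A1, reached 16 on 2 arrays, both in water. These were the B arrays of 3 h (25.6) and 6 h (21.2), and the water arrays ranged from 8.76 to 25.6. The gibberellin arrays ranged from 3.58 to 15.9. At 6 h the 2 gibberellin arrays read 6.28 and 6.02 and the water arrays 12.7 and 21.2, a log2 change of -1.41 ± 0.778 (limma, adjusted p = 0.557). The average change was -0.74 ± 0.449 (95% interval -1.73 to 0.24; limma, adjusted p = 0.34). Since it entered through water arrays alone, its sign is partly set by the brightness rule.

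CYP51G2 (AT2G17330) is a relative of the sterol demethylase gene CYP51G1, and RefSeq annotates it as a transcribed pseudogene. It reached 16 on 3 arrays, all of them gibberellin (20.5 at 3 h, 25.8 at 6 h and 18.1 at 9 h), so the rule favours a positive change here. The water arrays ranged from 5.73 to 15.2 and the gibberellin arrays from 7.44 to 25.8. Of all 10 members it had the only positive average change, 0.32 ± 0.402 (95% interval -0.56 to 1.2; limma, adjusted p = 0.684).

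CYP71B38 (AT3G44250) reached 16 on 3 arrays and ranged from 8.25 to 20.8 in water and from 7.78 to 17.3 in gibberellin, with an average change of -0.35 ± 0.382 (limma, adjusted p = 0.636). CYP71B24 (AT3G26230) reached 16 on the B arrays of 9 h only, with 17.1 in water and 20.1 in gibberellin. The other 10 arrays of CYP71B24 read between 2.41 and 13.5, and its average change was -0.19 ± 0.617 (limma, adjusted p = 0.895). For neither gene do the 6 gibberellin arrays separate from the 6 water arrays, although both gibberellin arrays of CYP71B24 lay above water at 6 h (log2 change 0.99 ± 1.07; limma, adjusted p = 0.823).

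Just outside the rule, CYP71B22 (highest signal 24.3), CYP71B36 (20.1), CYP71B35 (19.1) and CYP71B27 (19.1) each reached 16 on 1 array. Just inside it, CYP71B24 and CYP84A4 reached it on 2, with highest signals of 20.1 and 25.6. CYP71B21 came to 15.8 on 1 array and 16 on none. Of the remaining probe sets, CYP71B16, CYP71B23, CYP71B25, CYP71B29 and CYP71B31 had highest signals between 4.77 and 13.0. CYP78A9 had a highest signal of 12.8. CYP79A2, which makes the oxime that leads to benzylglucosinolate, had one of 2.48. A signal under 16 does not show that a gene was silent.

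On chromosome 3, CYP71B genes lie in 1 long stretch of neighbours, and 4 of the 10 members come from it. From CYP71B16 to CYP71B37 the RefSeq gene order of TAIR10.1 holds 20 protein-coding genes, of which 16 are CYP71B genes. Of these 16, 11 have a probe set annotated to them only. CYP71B26 and CYP71B34 stand side by side, and both reached 16 on all arrays. Near them in the gene order, CYP71B35 and CYP71B36 reached it on 1 array each and CYP71B25 on none. A probe set that names both CYP71B19 and CYP71B20, left out by the rule, read between 22.6 and 49.4, with an average log2 change of 0.24 ± 0.184 (limma, adjusted p = 0.477). Genes of such a stretch have related sequences, and whether transcripts of 1 gene add to the signal of another was not tested.

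**Figure D3:**
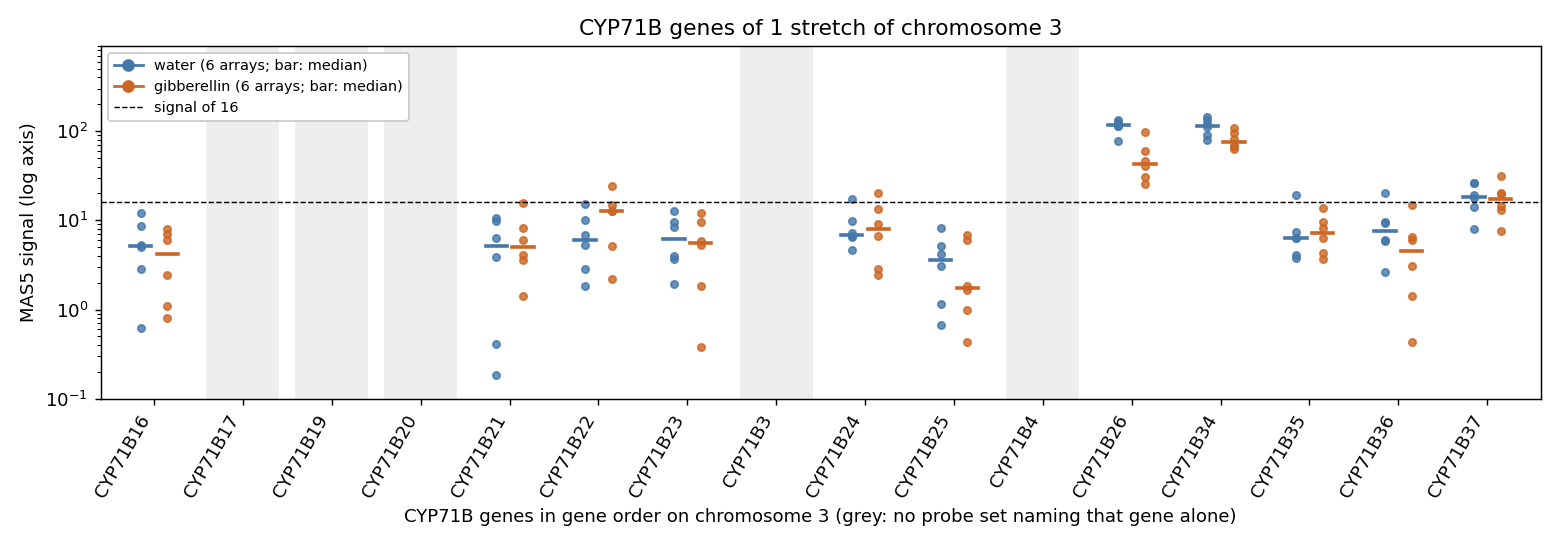
MAS5 signal (log axis) of the CYP71B genes of this stretch in gene order, with 6 water arrays in blue, 6 gibberellin arrays in orange, bars at their medians, and a dashed line at 16; grey columns are genes the annotation names for no single-gene probe set. CYP71B26 and CYP71B34 stand above the line on all arrays, CYP71B37 straddles it, and the other 8 genes shown lie mostly below it.

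The hormone P450 genes listed for this work were not analysed here, since the annotation table used names few P450 probe sets. Whether probe sets that it leaves unnamed belong to such genes was not checked. Of 23 hormone P450 symbols listed for this work (abscisic acid, gibberellin, brassinosteroid, cytokinin, strigolactone and jasmonate), 0 are named for a single-gene probe set in that table. Of 27 further symbols of glucosinolate, camalexin, phenylpropanoid, carotenoid and sterol P450s, 1 is, the dim CYP79A2. None of the 21 P450 loci looked up by locus and neither of the 2 NADPH-P450 reductase genes is named there for a single-gene probe set. Probe sets that name several genes were not searched for these loci.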

How the data were processed

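The authors deposited 1 intensity per probe set and array, unlogged, which the submitters' processing notes credit to MAS5 without a version. After 64 control probe sets were left out, 22746 remained, and the 15779 with a signal of 16 or more on at least 2 of 12 arrays were taken to log2 with no offset or further scaling. Names came from the platform annotation, matched by gene ID to the RefSeq table of TAIR10.1, which was used for names and gene order.

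The 12 arrays entered 1 linear model with a mean for each of the 6 groups, in limma 3.58.1 in R 4.3.3, with variances moderated by an intensity trend (6 residual and 5.53 prior degrees of freedom). All tests are two-sided. Adjusted p-values are Benjamini-Hochberg values over all 15779 probe sets, and under 0.05 counts as passing. Intervals of 95% are unadjusted. The procedure was tested on simulated data in which 200 of 15779 probe sets changed. Each changed by the same amount at all 3 times, in 1 draw for each size. Recovery at the 3 single times therefore differs only by the draw. In the deposited data 1178 probe sets passed at 9 h and 1833 on average, so recovery there may differ from that simulated. A log2 change of 1 was recovered in 10% of the changed probe sets at 3 h, 5% at 6 h, 0% at 9 h and 51.5% on average. A log2 change of 2 was recovered in 56%, 58%, 57.5% and 83.5%. A member that did not pass can therefore still have changed.

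The text names all members, and of the genes outside the rule those just below it or on the fixed lists. The members, lists and tests were chosen with earlier results of these data known. The ratio tests, the fit to 8 arrays and the effect at 6 h minus that at 3 h were added after the values were seen. Alternatives covered the trend, an offset, filters, scaling, blocks, single times and leaving out each array. No sequences were used here.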

Additional observations from a re-analysis of the deposited data

Results flagged for a closer look

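CYP71B37 was picked out because its 2 gibberellin arrays lay above both water arrays at 3 h and below both at 6 h. The effect at 6 h minus the effect at 3 h was -1.73 ± 0.866 on the log2 scale (limma, unadjusted p = 0.0703, adjusted p = 0.99986), so the difference did not pass the test. Its signals, between 7.65 and 31.2, lie around the brightness floor of 16.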

How the results depend on the processing

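With no intensity trend, 0 P450 probe sets passed at 6 h and 0 at 9 h (CYP71B26: adjusted p = 0.108 and 0.0621), and within the 8 arrays without the low ceiling 0 passed at 6 h. With the replicate letter as a block (replicate block), 2 passed at 9 h and 2 on average, CYP71B26 and CYP71B34, against 17.0% and 21.8% of all probe sets (CYP71B34: adjusted p = 0.0339 and 0.00846), and 1, CYP71B26, in gibberellin from 3 h to 9 h (adjusted p = 0.0338), against 6.49%. With the signal ceiling as a block 2 passed on average, against 17.0%. Leaving out 1 array gave between 0 and 1 calls at 6 h and at 9 h. The causes were not tested. CYP71B26 kept a negative change in all 21 alternatives of the average (-1.49 to -1.05) and passed in 16 of 22 at 6 h and 18 of 22 at 9 h. Most fits without 1 array left out an array of another time, which cannot move the change, and all of these passed. The tally therefore overstates how stable these calls are. Leaving out an array of the same time lost the call, except at 9 h without gibberellin B. The A-minus-B differences of 2 groups correlated positively in all 15 pairs of groups, between 0.0764 and 0.275. As 1 pair was not over 0.1, the letters were not taken as a pairing in the fit reported. That cut is arbitrary, and whether CYP71B26 alone passes depends on this choice. Any difference that A and B arrays share across groups therefore stays in the spread of that fit. Calls over all probe sets ranged over the alternatives from 1 to 110 at 3 h (36 in the fit reported), 66 to 856 at 6 h (233), 256 to 2688 at 9 h (1178), 558 to 3444 on average (1833), 1 to 163 for the effect at 9 h minus that at 3 h (2), 5 to 1024 from 3 h to 9 h in gibberellin (77) and 0 to 2 in water (0). The highest of each came with the replicate block and the lowest at 9 h without water B. With no trend the counts were 81 at 6 h and 628 at 9 h, and with the ceiling block 505 and 1996. With a floor of 32 the 5 dim members were not tested. The ratio tests were not repeated under other settings. Signals near 16 limit what the dim members can show.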
